A study of Mus musculus with 6 samples.

Results

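General capillary endothelial cells (gCap) were the largest endothelial population of the postnatal mouse lung in these data, with 6096 of 61839 cells (9.86%) and 55.6% of the 10969 endothelial cells. They were taken as the cells to which the deposited annotation gives its capillary cluster that is not the aerocyte cluster, the one the study names gCap. The other endothelial types held 3376 capillary aerocytes (aCap), 604 arterial, 571 venous and 322 lymphatic cells. The cells are those of the deposited table, which holds fewer than the published total, and shares depend on which cells it keeps. Single-cell RNA was measured in whole digested lungs of 36 C57BL/6 mice at postnatal day 3, 7 or 14 (P3, P7, P14), with 6 mice in each of 6 groups. At each age the mice had been kept from birth in room air (normoxia, 21% O2) or in hyperoxia (85% O2), the exposure used in mice to impair alveolar development. No group carried a transgene or a deletion, and both oxygen levels of an age shared pools. Cells of individual mice had been tagged with lipid-anchored barcodes (MULTI-seq), mixed and run as 6 droplet libraries. These were taken here as 5 pools, with the libraries labelled with both P3 and P7 counted as the same pool.

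gCap cells line the dense capillary net around the alveoli together with the larger, flatter aerocytes, which lie against the air space and serve gas exchange. gCap cells regulate vascular tone, carry the anchor for lipoprotein lipase that lets fatty acids leave the blood, and act as the progenitor pool that divides and gives rise to both capillary types during growth and repair. In infants born very preterm, high oxygen and an arrest of alveolar and capillary growth go together in bronchopulmonary dysplasia.

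All levels are unique molecular identifiers (UMIs, 1 per captured transcript) of a gene as CPM, scaled to the summed UMIs of the gCap cells of 1 mouse, and the mouse is the replicate. P7 hyperoxia replicate 5 held 5 gCap cells and was left out of the gene tests, so 35 mice with 25 to 615 gCap cells entered them. Summed gCap UMIs per mouse ran from 114453 to 2052233, with a median of 2623 UMIs and 1475 genes per cell. Of all cell barcodes, 394 occurred in more than 1 library, and 2 of these were gCap barcodes. The gCap cells of P14 hyperoxic mice held more UMIs per cell than those of P14 normoxic mice, with a mean over mice of the median UMI count of 4408 ± 873 (SD, n = 6) against 2032 ± 152 (n = 6; exact permutation test, two-sided p = 0.00216, the smallest it can give). Markers of other cells moved with oxygen at P14 too. The summed level of 8 epithelial genes, among them surfactant genes, was 2216 to 3317 CPM in normoxia and 1139 to 1819 CPM in hyperoxia, with every one of the 8 detected in both groups. The 8 stromal genes summed to 276 to 470 and 131 to 294 CPM, and the 10 immune genes to 270 to 396 and 165 to 231 CPM, again with none at 0. The 5 haemoglobin and other red cell genes ranged from 3.59 to 6786 CPM over all fitted mice. The part of these differences in the gene results was not tested.

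Of the 5 genes used to mark gCap, Gpihbp1 and Kit were highest in gCap and the other three were higher in arterial or venous cells. Gpihbp1, the capillary anchor of lipoprotein lipase (chr15:75596628-75599481, GRCm38), had its highest level of any annotated cell type in gCap, at 1080 ± 172 CPM (SD, n = 18 normoxic mice) against 507 in aCap, 557 in venous, 258 in lymphatic and 184 in arterial cells. Outside the endothelium its highest mean was 17.2 CPM. Kit, the stem cell factor receptor (chr5:75574916-75656722), was likewise highest in gCap, with 412 ± 140 CPM against 123 in aCap and 73.7 or less in the other endothelial types. Cd93, a cell surface glycoprotein of endothelium, was highest there as well, at 1350 ± 332 CPM.

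Plvap, which forms the diaphragms of fenestrae and caveolae (chr8:71497765-71511752), reached 610 ± 112 CPM in gCap but 821 in venous cells. Aplnr, the apelin receptor (chr2:85136225-85139923), was at 274 ± 68.8 CPM in gCap and 514 CPM in venous cells. Ptprb, the vascular phosphatase that restrains the Tie2 receptor (chr10:116275523-116389535), was at 1429 ± 783 CPM in gCap and higher in arterial (3115 CPM) and venous cells (2646 CPM). Genes of the aerocyte were low in gCap: Car4, a carbonic anhydrase on the cell surface, was at 97.8 CPM against 992 CPM in aCap, and the endothelin receptor Ednrb at 72.8 against 896 CPM. Since clusters were drawn from the same RNA, these levels describe the population and are no test of it.

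**Figure D1:**
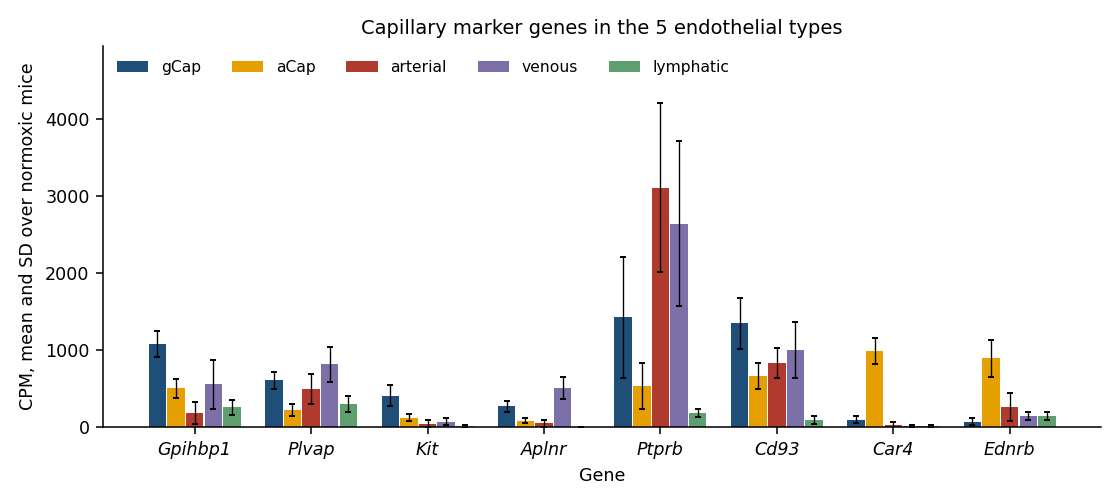
Level of 8 genes (CPM, mean with SD over normoxic mice) in gCap, aCap, arterial, venous and lymphatic cells. Gpihbp1, Kit and Cd93 are highest in gCap, Plvap and Aplnr in venous cells, Ptprb in arterial cells, and Car4 and Ednrb in aCap.

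The share of gCap among all cells was larger at P14 than at P7 in room air, and smaller in hyperoxia than in room air at P7 and P14. In normoxia the share per mouse was 2.97% to 11.7% at P3 (median 9.30%), 7.87% to 12.5% at P7 (median 10.6%) and 12.0% to 20.5% at P14 (median 16.9%). In hyperoxia it was 5.61% to 10.8% at P3 (median 6.39%), 4.0% to 7.56% at P7 (median 5.2%) and 3.92% to 7.23% at P14 (median 5.23%). The lowest P7 value in hyperoxia came from replicate 5, with 5 gCap cells among 125 cells. The oxygen groups overlapped at P3 and did not at P7 or P14. The difference of means was -1.45 percentage points at P3 (two-sided exact permutation test, adjusted p = 0.414 over 10 share comparisons), -4.82 at P7 and -11.1 at P14 (adjusted p = 0.00722 for both). Without P7 hyperoxia replicate 5 the P7 difference was -4.51 points (exact permutation test, adjusted p = 0.0108). The normoxic rise of 5.97 points between P7 and P14 passed the same exact permutation test (adjusted p = 0.00722). Those ages shared no pool, so that age and pool cannot be told apart in it. Pools of 1 age differed as well, with normoxic means of 11.5% and 5.83% in the pools of P3. The rise of 1.73 points between P3 and P7 did not pass (exact permutation test, adjusted p = 0.392). This smaller rise was 0.596 points without the normoxic mouse of these ages with the fewest cells. It was 4.70 points within the only pool that held both ages, where 3 mice against 3 did not overlap (exact permutation test, p = 0.1, the smallest possible). The P3 pools differed in the sign of the oxygen difference (-3.10 and 0.204 points), and those of P7 (-4.16 and -5.49) and P14 (-12.3 and -9.85) did not.

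Within the endothelium, a share that non-endothelial cells cannot alter, gCap made up 54.0% ± 4.50 (SD, n = 6) of endothelial cells in normoxia and 53% ± 2.05 (n = 6) in hyperoxia at P3, 58.1% ± 4.07 and 42.5% ± 7.29 at P7, and 67.1% ± 2.58 and 36.4% ± 5.50 at P14. The oxygen difference was -15.6 points at P7 and -30.7 points at P14 (exact permutation test, adjusted p = 0.00722 for both), with groups that overlapped at P7 and stood apart at P14. Without P7 hyperoxia replicate 5, which held 14 endothelial cells, the P7 difference was -14.3 points (exact permutation test, adjusted p = 0.0108). In each pool the sign was the same at these ages: -9.58 and -21.7 points in the 2 pools of P7, and -28.3 and -33.2 points in those of P14. At P14 there were 3.19 ± 0.515 gCap cells per aCap cell in normoxia and 0.724 ± 0.156 in hyperoxia (n = 6 each). Shares of digested and captured cells cannot tell a loss of gCap from a gain of other cells.

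**Figure D2:**
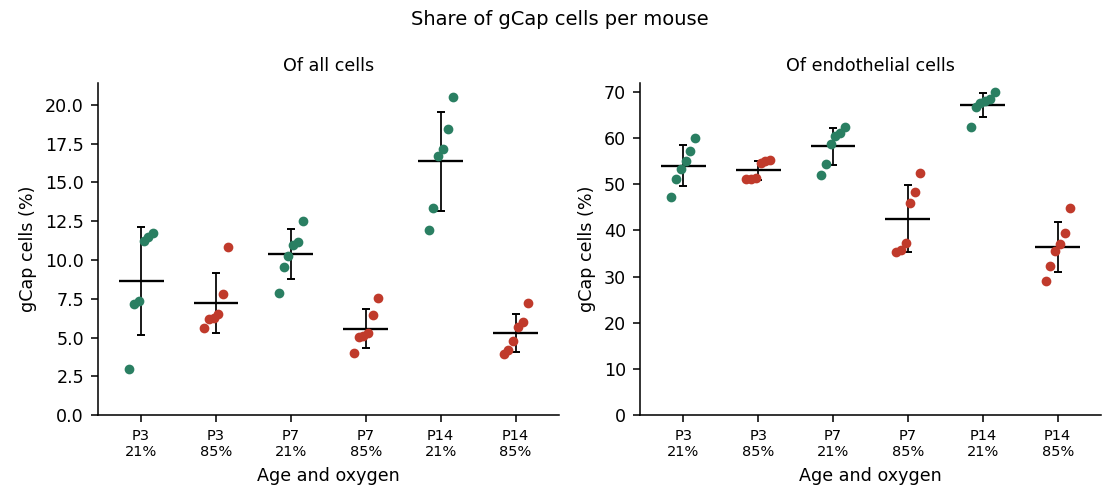
Percent of gCap among all cells and among endothelial cells, 1 point per mouse, by age and oxygen, with the mean and SD of each group. At P14 the 6 hyperoxic mice lie between 3.92% and 7.23% of all cells, below every normoxic mouse.

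The response of gCap RNA to hyperoxia was small at P3 and large at P14. A gene was called when its edgeR adjusted p was below 0.05 over the 8538 genes tested and a UMI was found in at least 10% of the gCap cells of 1 group compared. Overlap of groups was looked at for named genes only. How common a lack of overlap was among all genes was not counted, so it does not set the named genes apart. At P3, 127 genes were called (1.49% of those tested, 89 higher and 38 lower in hyperoxia), at P7 942 genes (11%, 572 higher and 370 lower) and at P14 3713 genes (43.5%, 2121 higher and 1592 lower). Over all ages together 2754 genes were called (32.3%). The effect itself differed between P14 and P3 in 1972 genes (23.1%) and between P14 and P7 in 1485 (17.4%). With libraries scaled by their total alone, the split was 65 higher and 90 lower at P3, 415 and 588 at P7, and 1821 and 1863 at P14, so that the balance of directions depended on the scaling. It also depended on the criterion on detection, without which 2245 genes were higher and 2012 lower at P14. The shares of all genes set beside the lists below are those of the first counts, with this criterion. A term for the pool gave 391 genes at P3. With 25 gCap cells drawn per mouse, 11, 206 and 1219 genes were called at the 3 ages, and with cells thinned to 1000 UMIs 55, 198 and 1125. The P14 split was 596 higher and 623 lower with 25 cells, and 553 and 572 with thinned cells.

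At P14, 4 of the 5 gCap markers were lower in hyperoxia (18.6% of all genes tested were) and their median log2 fold change was -1.83 against 0.0134 over all genes. At P7, 2 were lower and 1 was higher (4.33% and 6.7% of all genes), and at P3 1 was higher (1.04%). All 5 had a more negative oxygen effect at P14 than at P3 and than at P7 (10.2% and 7.88% of all genes did). Since the same genes help to place a cell in the cluster, cells that lost them further may have been given another name, and levels within gCap cannot be told apart from that choice.

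Kit had 503 to 662 CPM in the P14 normoxic mice (median 577) and 60.9 to 107 CPM in the hyperoxic mice (median 72.1). The groups were far apart, with a log2 fold change of -2.82 ± 0.18 (SE; edgeR adjusted p = 1.43e-17). At P7 it was at 253 to 451 CPM in normoxia and at 73.0, 120, 118, 134 and 231 CPM in the 5 hyperoxic mice, all below the lowest normoxic mouse (-1.36 ± 0.17, edgeR adjusted p = 1.36e-07). At P3 the groups did not overlap either, with 271 to 353 and 158 to 263 CPM, but the test across all genes did not call the difference (-0.45, edgeR adjusted p = 0.181).

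Aplnr followed the same order. It was at 290 to 384 CPM in P14 normoxia (median 358) and at 25.6 to 67.6 CPM in hyperoxia (median 46.9), a log2 fold change of -2.80 ± 0.17 (edgeR adjusted p = 2.44e-18). At P7 its normoxic mice had 223 to 292 CPM and the hyperoxic mice 82.9, 117, 106, 134 and 166 CPM, again without overlap (-1.05 ± 0.15, edgeR adjusted p = 1.97e-06). Its P3 groups overlapped.

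Gpihbp1 and Ptprb were called at P14 and not at P3 or P7. Gpihbp1 was at 1128 to 1345 CPM in P14 normoxia (median 1205) and at 115 to 734 CPM in hyperoxia (median 418), with no overlap (-1.48 ± 0.20, edgeR adjusted p = 3.22e-08). The spread of the hyperoxic mice followed the pools, with 229, 115 and 311 CPM in the one and 549, 524 and 734 CPM in the other. At P7 the difference was -0.08 (edgeR adjusted p = 0.854) and at P3 0.46 (0.261). Ptprb was at 1870 to 2900 CPM in P14 normoxia (median 2537) and at 518 to 811 CPM in hyperoxia (median 660; -1.83 ± 0.13, edgeR adjusted p = 7.05e-16). At P3 and P7 its groups overlapped, with log2 differences of 0.05 and 0.11.

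Plvap went the other way at the early ages. The P3 normoxic mice had 509 to 787 CPM and the hyperoxic mice 814 to 1168 CPM, with no overlap (0.57 ± 0.16, edgeR adjusted p = 0.0492). At P7 the normoxic mice had 407 to 766 CPM and the hyperoxic mice 1076, 1212, 1239, 665 and 826 CPM, of which 1 lay within the normoxic range (0.87 ± 0.16, edgeR adjusted p = 0.000104). Within pools there was no overlap, as the normoxic mice of that mouse's pool had 407 to 501 CPM. At P14 the difference was -0.28 ± 0.16 (edgeR adjusted p = 0.135), with overlapping groups. The P3 call was lost with library size alone (0.48), with 25 cells per mouse (0.75) and with a term for Y-linked UMIs (0.60). Y-linked genes summed to at least 50 CPM in 2 of 6 normoxic and 5 of 6 hyperoxic mice at P3, in 2 and 4 at P7 and in 3 and 3 at P14, and the part of sex in the results was tested only by that term. P7 normoxia replicate 4 had 2.84 CPM of Y-linked genes and 12.3 CPM of Xist. The study told sex by PCR for Sry and by Xist, and its PCR calls were not used here. Neither RNA level told the sex of this mouse, and it entered the term as without Y-linked UMIs. The unfitted P7 hyperoxia replicate 5 had 0 CPM of both.

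Counted over single cells thinned to 1000 UMIs, the share of gCap cells with a Kit UMI at P14 was 46.2% in normoxia and 9.80% in hyperoxia (mean of 6 mice each), and 0.284% and 0.332% in Col13a1+ fibroblasts, taken as a type that should lack the gene. Before thinning the gCap shares were 69.4% and 33.3%. For Gpihbp1 the thinned shares were 65.9% and 26.3% in gCap against 0.890% and 0.529% in the fibroblasts, and the unthinned ones 77.7% and 49.3%. Thinning left out 368 normoxic and 34 hyperoxic gCap cells at P14.

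**Figure D3:**
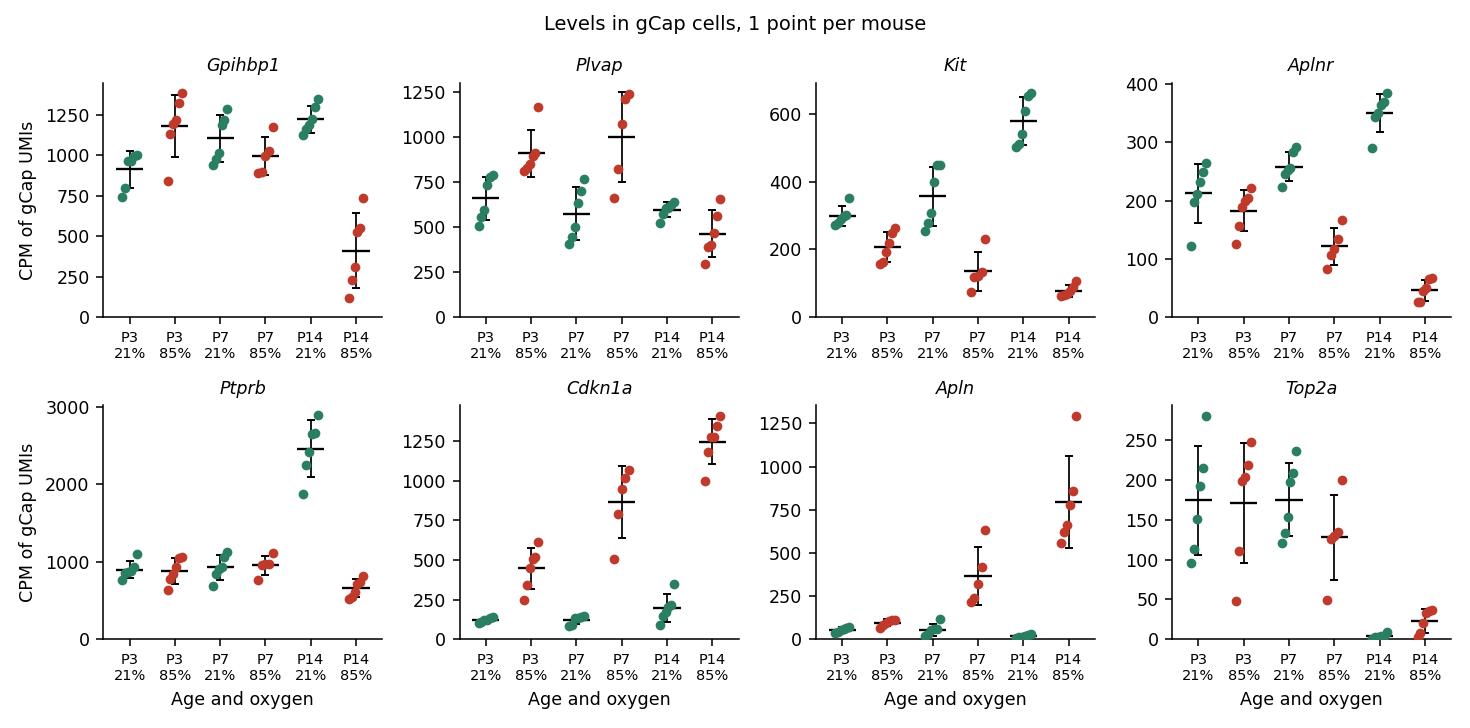
Level of 8 genes in gCap (CPM), 1 point per mouse by age and oxygen, with the group mean and SD. Kit and Aplnr are lower in every hyperoxic mouse at P7 and P14, Gpihbp1 and Ptprb at P14, and Cdkn1a is higher in every hyperoxic mouse at all ages.

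A list of genes had been named by the study from these mice, most of them for the response of aCap rather than gCap, and Bst1 and Procr as genes of endothelial progenitors. Of its 17 members 4, 12 and 14 were called higher at the ages in order, with 1 lower at P14, where 1.04%, 6.7% and 24.8% of all genes were higher and 18.6% lower at P14, and their median log2 fold change was 0.44, 1.28 and 2.72. The list was chosen on these samples, so its direction is no independent evidence. Inhba, which encodes the activin A subunit, had the largest increase at P14. It was at 1.42 to 9.42 CPM in P14 normoxia (median 5.51) and at 406 to 1072 CPM in hyperoxia (median 639; 7.21 ± 0.33, edgeR adjusted p = 5.02e-22). At P7 the hyperoxic mice had 126, 43.1, 37.3, 23.8 and 68.4 CPM, all above the normoxic range of 0 to 6.43 CPM.

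Ctgf, a matrix protein induced by TGFb and by stretch, was at 8.92 to 22.6 CPM in P14 normoxia and at 152 to 410 CPM in hyperoxia (4.19 ± 0.29). Tgfb2, a TGFb ligand, was at 11.3 to 39.0 and 172 to 585 CPM (3.57 ± 0.24). None of these groups overlapped.

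Icam1, the adhesion molecule that binds leukocyte integrins, was at 59.0 to 147 CPM in P14 normoxia and at 365 to 726 CPM in hyperoxia (2.59 ± 0.30, edgeR adjusted p = 1.01e-09). At P7 the 5 hyperoxic mice fell apart into 793, 514 and 812 CPM in 3 and 172 and 185 CPM in the other two, a split that followed the pools, against 62.2 to 226 CPM in normoxia (1.89 ± 0.29, edgeR adjusted p = 6.03e-06). Timp3, an inhibitor of matrix proteases, was at 211 to 315 and 1698 to 2332 CPM at P14 (2.93 ± 0.15), and Igfbp7, a secreted binding protein of the vessel wall, at 348 to 445 and 1233 to 2708 CPM (2.45 ± 0.17). Both were without overlap. Procr, the endothelial protein C receptor, had overlapping groups at P14, 1.80 to 11.3 and 7.09 to 279 CPM (3.84 ± 0.46, edgeR adjusted p = 2.17e-09). Bmpr2, the BMP receptor mutated in heritable pulmonary hypertension, was the 1 gene of the list that fell, from 1196 to 1684 CPM in normoxia to 716 to 1079 CPM (-0.71 ± 0.12).

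Targets of p53 were called higher at every age. p53 is stabilised when DNA is damaged and switches on genes of growth arrest, repair and death. Of 19 tested targets 11 were higher at P3 and none lower, where 1.04% of all genes were called higher. At P7 14 were higher and 2 lower (6.7% and 4.33% of all genes), and at P14 13 higher and 2 lower (24.8% and 18.6% of all genes). Their median log2 fold change was 1.29, 1.47 and 1.54 against medians of -0.0034, -0.0113 and 0.0134 over all genes. The effect differed between P14 and P3 in 3 of the 19 (23.1% of all genes).

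Cdkn1a, the cyclin-dependent kinase inhibitor p21 (chr17:29090976-29100727), was at 102 to 140 CPM in P3 normoxia and at 249 to 613 CPM in hyperoxia (1.98 ± 0.22, edgeR adjusted p = 3.69e-08). At P7 it was at 85.3 to 146 CPM in normoxia and at 1069, 1015, 948, 789 and 508 CPM in the hyperoxic mice (2.90 ± 0.21). At P14 it was at 90.4 to 347 and 1001 to 1409 CPM (2.72 ± 0.20, edgeR adjusted p = 1.28e-15). No hyperoxic mouse reached down to the normoxic range of its own age.

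Bax, which permeabilises mitochondria in apoptosis, was at 196 to 288 and 395 to 724 CPM at P3 (1.51 ± 0.13) and at 165 to 173 and 571 to 863 CPM at P14 (2.25 ± 0.12). Gdf15, a secreted stress cytokine, was at 0 to 6.58 and 25.1 to 166 CPM at P3 (4.21 ± 0.69) and at 1.42 to 12.7 and 111 to 1301 CPM at P14 (6.84 ± 0.47). Ccng1, cyclin G1, had nearly the same effect at P3, P7 and P14 (2.11, 2.18 and 2.14). Those 3 genes also stood clear of normoxia in every hyperoxic mouse at each age.

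Phlda3, a repressor of Akt, was higher by 1.57, 2.19 and 3.34 at the 3 ages, and Zmat3, an RNA-binding target, by 2.37, 3.36 and 3.21. Mdm2, the ubiquitin ligase that limits p53, was higher by 0.98, 1.10 and 1.38. Eda2r, a death receptor of the TNF family, was called at P7 (4.67) and P14 (5.2), and at P3 its 50 hyperoxic UMIs against 1 in normoxia came from too few cells to be called. The exceptions were Rrm2b, a subunit of ribonucleotide reductase, which was lower at P7 and P14 (-0.79 and -0.69), Gadd45a, lower at P7 (-0.91), and the death receptor Fas, higher at P7 (0.64) and lower at P14 (-0.38). With 25 cells drawn per mouse Ccng1, Gdf15, Zmat3 and Aen lost their P3 call at log2 values of 2.73, 2.69, 1.81 and 1.99, and the P14 call of Fas was lost there and in 3 other settings.

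**Figure D4:**
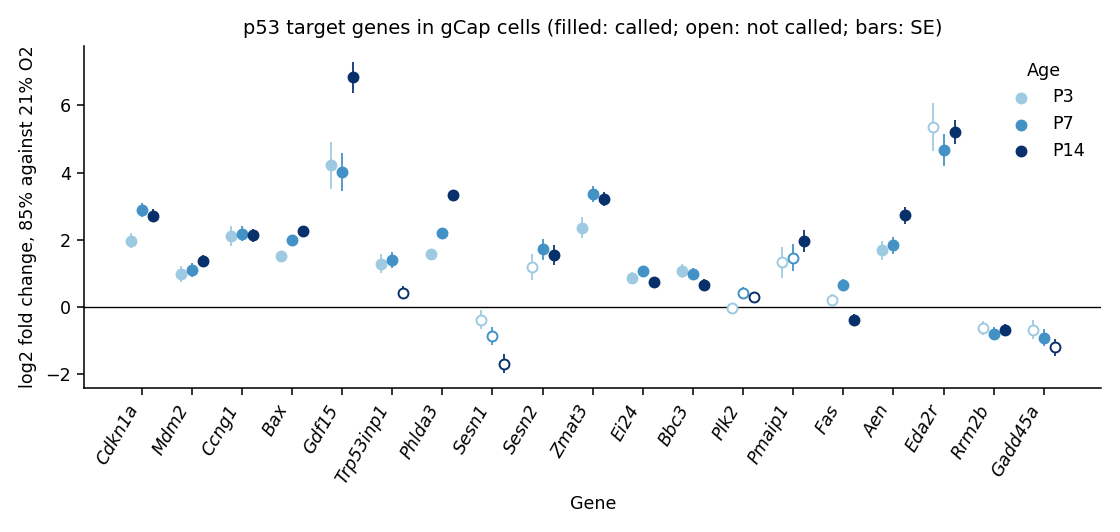
Log2 fold change (hyperoxia over normoxia, with SE) of 19 p53 targets in gCap at P3, P7 and P14, with filled points where the gene was called. Most targets lie above 0 at all 3 ages, Gdf15 furthest at 6.84 at P14, and Rrm2b lies below 0 at P7 and P14.

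The letters of the p53 binding decamer were found in several of these promoters. RefSeq windows of the 250 bases before the start site (GRCm38.p6) were at hand for 15 of the 20 listed targets, and 8 of them held at least 1 decamer on either strand, as did 8.20% of the windows of 27025 genes. The 3 shown belong to targets that rose at every age, with the decamers in capitals. In Cdkn1a (chr17:29090729-29090978, plus strand) they end 64 and 42 bases before the start, in Ccng1 (chr11:40755287-40755536, minus strand) 176 bases and in Mdm2 (chr10:117710759-117711008, minus strand) 177 bases before it. Where a gene had several windows, the one with most matches is shown. A match in letters is a description and no measurement of binding.
Cdkn1a: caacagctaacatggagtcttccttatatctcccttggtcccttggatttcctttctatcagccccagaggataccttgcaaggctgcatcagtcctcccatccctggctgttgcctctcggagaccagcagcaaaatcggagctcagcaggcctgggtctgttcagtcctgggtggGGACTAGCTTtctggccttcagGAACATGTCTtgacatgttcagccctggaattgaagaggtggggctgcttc
Ccng1: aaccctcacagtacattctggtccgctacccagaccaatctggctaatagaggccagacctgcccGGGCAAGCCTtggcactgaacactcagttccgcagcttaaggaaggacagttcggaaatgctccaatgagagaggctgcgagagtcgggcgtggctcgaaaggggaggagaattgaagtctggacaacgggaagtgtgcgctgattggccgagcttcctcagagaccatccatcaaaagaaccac
Mdm2: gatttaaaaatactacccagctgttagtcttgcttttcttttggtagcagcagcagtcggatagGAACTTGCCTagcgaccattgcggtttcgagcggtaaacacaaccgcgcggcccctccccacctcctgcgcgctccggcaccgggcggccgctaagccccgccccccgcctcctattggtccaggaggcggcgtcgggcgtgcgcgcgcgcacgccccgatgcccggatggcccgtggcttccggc

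Genes that mark the aerocyte were higher in the cells named gCap under hyperoxia at P7 and P14. Since such genes also help to place a cell in a cluster, their levels within gCap cannot be told apart from that choice. At P14 there were 3.19 gCap cells per aCap cell in normoxia and 0.724 in hyperoxia, and the part of stray aCap RNA was not tested. Of 9 tested aCap genes none was called at P3, 5 were higher at P7 (6.7% of all genes) and 8 at P14 (24.8%), with none lower and median log2 fold changes of -0.32, 0.90 and 1.5. Apln, the ligand of Aplnr (chrX:48025146-48034853), was at 19.5 to 118 CPM in P7 normoxia and at 630, 217, 418, 321 and 237 CPM in the hyperoxic mice (2.62 ± 0.26). At P14 it was at 10.2 to 32.7 and 556 to 1290 CPM (5.68 ± 0.30, edgeR adjusted p = 7.17e-20). Its receptor was called lower at both ages.

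Car4 was at 77.2 to 94.8 CPM in P14 normoxia and at 199 to 479 CPM in hyperoxia (1.96 ± 0.17, edgeR adjusted p = 6.99e-13). At P7 it was at 49.2 to 79.9 and at 122, 206, 158, 97.1 and 104 CPM (1.31 ± 0.20). Both ages were without overlap. At P3 the order was the reverse, with 117 to 245 CPM in normoxia and 39.2 to 115 CPM in hyperoxia, without overlap but not called (-0.68 ± 0.21, edgeR adjusted p = 0.0849). Kdr, the main VEGF receptor, which aCap holds at a higher level, was at 365 to 449 and 980 to 1221 CPM at P14 (1.5 ± 0.13) and was also called at P7 (0.90). Ednrb was at 17.0 to 58.1 and 49.4 to 116 CPM at P14, with overlap (0.87 ± 0.27, edgeR adjusted p = 0.00581), a call that was lost with 25 cells per mouse (1.25). Tbx2, a transcription factor of the aerocyte, and Chst1, a sulfotransferase, were higher by 1.89 and 3.22.

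Of 7 arterial genes 5 were lower at P14 and none higher (18.6% and 24.8% of all genes), among them Hey1 (-1.81), the gap junction gene Gja4 (-1.77), Efnb2 (-1.42) and Cxcl12 (-1.41), and of 6 venous genes 2 were lower, close to the share of all genes, Ephb4 (-0.98) and Vwf (-0.90). Lyve1, a hyaluronan receptor used as a lymphatic marker, rose at every age, although its normoxic level was higher in arterial (1484 CPM) than in lymphatic cells (1224 CPM). It was at 640 to 980 and 1482 to 2039 CPM at P3 (1.18 ± 0.18, edgeR adjusted p = 5.35e-05) and at 472 to 787 and 1183 to 1633 CPM at P14 (1.2 ± 0.18). Of the other lymphatic genes, Prox1, Mmrn1, Ccl21a, Reln and Pdpn were too low to be tested in gCap and Flt4 was not called.

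The receptors and ligands of vessel growth moved in both directions at P14. In the angiopoietin group, which includes Ptprb, 3 of 4 tested genes fell and 1 rose (18.6% and 24.8% of all genes). Tek, which encodes Tie2 (chr4:94739289-94874976), was at 514 to 591 CPM in normoxia and at 111 to 157 CPM in hyperoxia (-1.90 ± 0.12, edgeR adjusted p = 3.17e-17), Tie1 was lower too (-0.61), and Angpt2, the ligand that can antagonise Tie2, was at 5.45 to 24.5 and 63.9 to 266 CPM (3.19 ± 0.31). None of the 4 was called at P3 or P7, where the P7 hyperoxic mouse with the most Angpt2 had 63.1 CPM and the other four 7.69 to 29.6.

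Of 8 VEGF genes, Nrp2 (1.86), Kdr and Vegfb (0.71) were higher and Vegfc (-1.23) and Vegfa (-0.64) lower at P14, counts near the 24.8% and 18.6% of all genes. Notch genes were lower in 5 of 9 (18.6% of all genes), with Hey1, a Notch target, at 213 to 242 CPM in normoxia and 43.8 to 94.3 CPM in hyperoxia, followed by the ligand Dll1 (-0.90) and Notch1 (-0.61), and none rose. At P7 Hey1 had been higher (0.66). In the TGFb and BMP family, 3 of 8 ligands rose at P14 (Inhba, Gdf15 and Tgfb2) and Bmp6 fell (-1.02), again near the shares of all genes. Eng, a co-receptor, was higher at all ages (0.69, 1.26 and 1.03). Of 10 targets of these pathways 7 were higher at P7 (6.7% of all genes) and none lower, with a median of 0.70, and at P14 5 were higher and 2 lower (24.8% and 18.6%), the latter Id2 (-0.84) and Id3 (-0.29).

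Of 12 NRF2 targets 1 was called higher at P3 (Gclc, 0.77), 2 were higher and 1 lower at P7, and 7 were higher and none lower at P14, with a median of 0.74. Of all genes 1.04%, 6.7% and 24.8% were higher at these ages, and 4.33% lower at P7. Txnrd1, thioredoxin reductase, was at 22.5 to 45.4 CPM in P14 normoxia and 51.3 to 109 CPM in hyperoxia (1.41 ± 0.19). The ferritin light chain Ftl1 (1.29), haem oxygenase Hmox1 (1.27) and Gclc (1.07), which sets the rate of glutathione synthesis, were higher too. Among 10 antioxidant enzymes, Gpx1 (1.5), Prdx3 (0.94), Gpx4 (0.64), Prdx6 (0.52), Sod2 (0.47) and Prdx2 (0.25) were higher at P14 and catalase (Cat, -0.48) lower, which is 6 and 1 of 10 against 24.8% and 18.6% of all genes, with 2 higher at P7 (6.7%) and none called at P3. Sod1 was at 175 to 288 and 186 to 250 CPM at P14 and was not called.

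Of 13 hypoxia-inducible genes none was called at P3, 3 were higher at P7 (6.7% of all genes), and 8 were higher and 2 lower at P14 (24.8% and 18.6%). Ankrd37 was at 9.42 to 18.2 and 127 to 227 CPM at P14 (3.49 ± 0.32), and the glycolytic Pgk1 (1.33) and Aldoa (0.99) rose, while Hilpda (-1.36) and Vegfa fell. Of 20 interferon-responsive genes Bst2 was higher at all ages (0.47, 0.70 and 0.98). At P7 3 were lower (4.33% of all genes), among them Gbp7 (-1.19) and Psmb9 (-0.99). At P14 7 were higher, such as Isg15 (1.33), and Gbp7 (-1.0) and Iigp1 (-1.30) were lower (24.8% and 18.6% of all genes).

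Of 13 genes of leukocyte adhesion and chemokine signalling 1 was higher at P3, 5 were at P7 and 7 were at P14 (1.04%, 6.7% and 24.8% of all genes), when Cxcl12 was the 1 that fell. Ackr3, a scavenging receptor for CXCL12, was at 43.7 to 136 and 160 to 294 CPM at P3 (0.91), and at 90.8 to 145 and 250 to 443 CPM at P14 (1.82). The NF-kB feedback gene Tnfaip3 was higher by 1.66 and Nfkb2 by 1.51 at P14. Vcam1, Sele, Ccl2, Il6 and Csf3 were too low in gCap to be tested. MHC class I genes had 2 called higher (B2m, 0.85, and Tap1, 0.70) and 2 lower (H2-T23, -0.68, and H2-Q4, -0.58) of 9 at P14, about the shares of all genes.

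Of 18 tested genes of the basement membrane and matrix, 12 were higher and 3 lower at P14 (24.8% and 18.6% of all genes), with a median of 1.2, against 9 and 2 at P7 (6.7% and 4.33%) and 0 and 1 at P3 (1.04% and 0.445%). Col18a1, the collagen that yields endostatin, was at 1.82 to 10.8 and 120 to 405 CPM (5.42 ± 0.36, edgeR adjusted p = 8.32e-17). Lamb1, a laminin chain, was at 3.63 to 17.9 and 79.7 to 167 CPM (3.58 ± 0.25), and Col4a1, a main collagen of the capillary basement membrane, at 1618 to 1825 and 3159 to 4377 CPM (1.22 ± 0.10). All 3 were without overlap. Fbln2, a fibulin, fell from 137 to 168 to 4.24 to 35.2 CPM (-3.22 ± 0.30) and was lower at P3 and P7 as well (-1.05 and -1.02).

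All 10 tested haemostasis genes were called at P14, 7 higher and 3 lower, where 43.5% of all genes were called. Thbd, thrombomodulin, fell from 677 to 898 CPM to 237 to 477 CPM (-1.03 ± 0.13), as did Vwf and Entpd1 (-0.60), while Procr, the plasminogen activator Plat (1.94) and its docking protein Anxa2 (1.98) rose. In the lipid group Lpl, whose product Gpihbp1 anchors, was at 107 to 436 CPM in P14 normoxia and 19.3 to 108 CPM in hyperoxia (-2.39 ± 0.27), and the fatty acid receptor Cd36 at 1360 to 1820 and 333 to 714 CPM (-1.52 ± 0.17). The lipid droplet gene Plin2 was higher (0.96). The transcription factor Tcf15 had 30.2 to 66.5 CPM in P7 normoxia and 9.90, 7.69, 6.79, 11 and 24.0 CPM in hyperoxia (-1.89 ± 0.29).

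Of 10 genes of vascular tone, Edn1, the vasoconstrictor endothelin, rose at all ages. It was at 47.2 to 132 CPM in P7 normoxia and at 307, 252, 370, 282 and 322 CPM in hyperoxia (2.03 ± 0.19), and at 67.2 to 131 and 167 to 381 CPM at P14 (1.43 ± 0.18). Calcrl, the receptor for adrenomedullin, was at 2074 to 2414 and 577 to 960 CPM at P14 (-1.48 ± 0.15), and Ace (-1.07) and Ramp2 (-0.58) were lower. Nos3, the endothelial nitric oxide synthase, was at 46.7 to 68.0 and 26.3 to 96.1 CPM and was not called. Among 11 caveolar and junction genes, 5 fell at P14 (18.6% of all genes did), led by Cav1 (-1.15) and the junction scaffold Tjp1 (-1.06), while the claudin Cldn5 was higher at each age (0.57, 0.60 and 0.69).

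Other genes with large changes were followed by the rule of size. At P14 these included Hapln1, a link protein of hyaluronan, at 0 to 2.04 and 44.3 to 133 CPM (5.76 ± 0.38, with 9 UMIs in all normoxic mice), and the tubulin Tubb6 (4.26). Among the largest decreases at an average log2 CPM of at least 5 were, besides Fbln2, those of Cyp26b1, which degrades retinoic acid, at 37.7 to 141 and 0 to 5.63 CPM (-4.57 ± 0.44), Abi3bp (-3.49), Zbtb16 (-3.34) and Cadm1 (-3.07). At P3 Ephx1, a detoxifying epoxide hydrolase, was higher by 2.45 and the activin subunit Inhbb by 1.63, while the taurine carrier Slc6a6 (-1.39) and Rgs2 (-1.24) were lower. At P7 the MHC gene H2-Q7 (-1.92), Grrp1 (-1.77) and the neurotrophin receptor Ntrk2 (-1.68) had the largest decreases at that level.

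In room air, few genes of gCap were called from P3 to P7 and many from P7 to P14. The mice of P7 and P14 shared no pool, so that age and pool cannot be told apart in the later step, whether in normoxia or in hyperoxia. From P3 to P7, 20 genes were called (0.234%), 10 in each direction. The aerocyte genes Car4 (-1.24) and Ednrb (-1.18) and the Ly6 genes Ly6a and Ly6c1 (-0.82 each) were lower at P7, and the transcription factor Meox1 (1.57) and Plat (1.0) higher. The count was 98 with a term for the pool, 41 with DESeq2, 108 with no filter on low counts and 4 with thinned cells, and with 25 cells per mouse edgeR called 0 while 234 genes had an unadjusted p below 0.05. From P7 to P14, 2950 genes were called (34.6%, 1306 higher and 1644 lower). The mean over mice of the median UMIs per gCap cell was 4096 in P7 normoxia and 2032 in P14 normoxia. In hyperoxia these means were 4747 and 4408. With thinned cells 524 genes were higher and 503 lower in the normoxic step, and with 25 cells per mouse 330 and 296. The balance of directions in that step therefore depended on the setting.

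Of 31 cell cycle genes 25 were lower at P14 than at P7 in normoxia and none was higher, with a median log2 fold change of -3.94 against 0.00 over all genes, where 19.3% of all genes were lower. Top2a, a topoisomerase of dividing cells, was at 121 to 236 CPM at P7 (median 175) and at 0.897 to 9.42 CPM at P14 (median 3.31; -5.65 ± 0.42, edgeR adjusted p = 4.49e-14). Mki67, the proliferation antigen, was at 125 to 188 and 0 to 10.7 CPM (-4.86 ± 0.42), and Cdk1, the mitotic kinase, at 72.8 to 140 and 1.80 to 5.65 CPM (-4.66 ± 0.37). No normoxic P14 mouse reached the P7 range in any of the 3.

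Under hyperoxia 7 of the 31 were lower at P7 (4.33% of all genes) and 1 higher (Ccnd1), with a median of -0.54. Cdk1 was at 18.6, 70.7, 58.8, 53.1 and 75.8 CPM in the hyperoxic mice (-0.85 ± 0.27, edgeR adjusted p = 0.0293), overlapping the normoxic range. At P14 the median was 1.65, with 5 called higher and 1 lower, a smaller share than the 24.8% and 18.6% of all genes. Top2a was at 3.20 to 37.2 CPM in P14 hyperoxia (2.90 ± 0.61, edgeR adjusted p = 9.35e-05, not called because under 10% of the cells of each group held a UMI), still below all P7 normoxic mice. The oxygen effect was more positive at P14 than at P7 in 18 of the 31 (9.51% of all genes) and more negative in none. Here, as in the normoxic step from P7 to P14, a gene could pass the criterion on detection through P7 alone. Levels of genes such as Top2a were very low in P14 normoxia, so a more negative effect at P14 could hardly be seen. Ccnd1, cyclin D1, rose at all ages (0.70, 1.44 and 3.03) and was at 113 to 249 and 1100 to 1683 CPM at P14, while in normoxia it was lower at P14 than at P7 (-1.57).

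In promoters of cell cycle genes 2 short motifs have been described, the CCAAT box and the cell cycle homology region. Both strands of the same RefSeq windows were searched for the letters of the box and for those of the region, TTTGAA. The box was found in 22 of 25 cell cycle genes with a window and in 37.5% of all 27025 genes, at least 2 of them in 18 of 25 and 11.5%, and the region in 9 of 25 and 18.3%. Both motifs were found in 9 of 25 and in 6.45% of all genes. Among NRF2 targets the box was found in 7 of 15 and the region in 6 of 15. Among p53 targets these counts were 9 of 15 and 4 of 15, so that the region was not particular to the cell cycle list. Top2a (chr11:99024190-99024439, minus strand) and Cdk1 (chr10:69352913-69353162, minus strand) are shown because their RNA fell among the most, with matches in capitals, read as their complement where they lie on the other strand.
Top2a: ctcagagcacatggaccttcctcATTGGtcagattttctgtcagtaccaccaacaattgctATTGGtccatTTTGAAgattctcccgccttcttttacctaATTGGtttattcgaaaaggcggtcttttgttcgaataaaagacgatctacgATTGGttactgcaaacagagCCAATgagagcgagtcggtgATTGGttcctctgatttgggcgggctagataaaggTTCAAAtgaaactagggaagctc
Cdk1: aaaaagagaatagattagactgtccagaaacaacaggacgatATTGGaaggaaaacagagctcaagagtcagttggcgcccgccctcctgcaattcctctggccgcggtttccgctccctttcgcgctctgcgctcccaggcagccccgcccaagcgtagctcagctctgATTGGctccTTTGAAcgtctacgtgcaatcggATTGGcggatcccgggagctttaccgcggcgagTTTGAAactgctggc

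Among the genes that rose in room air from P7 to P14 were 3 of the 5 gCap markers (15.3% of all genes rose). Ptprb (1.40 ± 0.13), Kit (0.70) and Aplnr (0.42) were higher at P14 than at P7 in normoxia, as were Tek (0.98), Lpl (1.77), Cd36 (1.34), Thbd (1.29), Bmpr2 (1.10) and 7 of 9 Notch genes with Hey1 (1.41) at their head. The largest increases were in Zbtb16 (5.65), which ran from 7.53 to 207 CPM among P14 mice, and in Klf9 (2.65), both genes known to respond to glucocorticoids. The Kit and Ptprb calls held with thinned cells, and that of Aplnr was lost there (0.34) and with 25 cells per mouse (0.31).

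In hyperoxia 1261 genes changed from P7 to P14 (14.8%, 672 higher and 589 lower), and all 5 gCap markers fell (6.9% of all genes did), Aplnr (-1.34), Gpihbp1 (-1.27), Plvap (-1.12), Kit (-0.77) and Ptprb (-0.54). The Kit call was lost with thinned cells (-0.36), with 25 cells per mouse (-0.76) and without P7 hyperoxia replicate 6 (-0.51). The 2 steps were measured in different mice and shared 597 called genes, which was 20.2% of the normoxic and 47.3% of the hyperoxic calls. Of all genes tested, 14.8% were called in hyperoxia and 34.6% in normoxia. Of the 597 shared genes 460 (77.1%) had the same direction and 137 the opposite one. Both steps ran between the same pools, so that age and pool cannot be told apart in what they share. Inhba (3.48), Col18a1 (2.85), Gdf15 (2.61), the calcium-binding protein S100a6 (2.59) and Angpt2 (2.56) led the increases in hyperoxia.

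The oxygen effect differed between gCap and the aCap of the same mice in 425 of 8658 genes over all ages (4.91%), 326 with a more positive effect in gCap and 99 with a more negative one. With 13 cells of each type drawn per mouse 22 were called, and with thinned cells 132. All 5 gCap markers had the more positive effect in gCap (3.77% of all genes did), with differences of 1.05 for Aplnr, 1.04 for Kit, 1.02 for Plvap, 0.63 for Gpihbp1 and 0.42 for Ptprb. In aCap these genes were lower than in gCap to begin with. At P14 Kit went from 154 to 195 CPM to 2.97 to 11.7 CPM in aCap, Aplnr from 89.2 to 154 to 0 to 13.3 CPM and Gpihbp1 from 375 to 660 to 16.4 to 193 CPM. With thinned cells the differences of Gpihbp1 (0.49) and Aplnr (0.99) were no longer called and that of Ptprb turned to -0.08.

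The aerocyte genes differed in the same sense, 9 of 10 with a more positive effect in gCap (3.77% of all genes). They help to place cells as well, so the same limit holds for their differences and adjusted p. Of Apln, Ednrb, Kdr and Tbx2, each was called with thinned cells and none with 13 cells drawn (edgeR adjusted p from 0.0550 to 0.153). Ednrb fell from 903 to 1273 CPM to 161 to 270 CPM in the aCap of P14 mice, while it was called higher in gCap (difference 1.33 over all ages, edgeR adjusted p = 5.24e-05). Car4 was at 931 to 1078 and 823 to 1253 CPM in aCap and Kdr at 1761 to 2168 and 1660 to 2060 CPM, each with overlap, against the rise in gCap (differences 0.83 each). Apln was at 234 to 337 and 917 to 1328 CPM in aCap (difference 1.83, edgeR adjusted p = 6.22e-09). Levels of Gpihbp1, Kit, Aplnr and Plvap still stayed higher in gCap than in aCap in P14 hyperoxia by their medians, 418 against 72.8, 72.1 against 7.94, 46.9 against 2.61 and 435 against 55.3 CPM.

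Cdkn1a rose more in gCap (difference 0.70, edgeR adjusted p = 1.96e-07), while Plat (-1.16, edgeR adjusted p = 7.04e-09) and Angpt2 (-0.93) had the more negative effect there (1.14% of all genes did). By the rule of size, Ntrk2 (1.76), Cxcl12 (1.71), Wfdc1 (1.64) and Wif1 (1.61) followed Apln among the positive differences, and Arl4c (-0.72), Tgfb2 (-0.67) and Trmt10c (-0.67) stood among the negative ones.

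**Figure D5:**
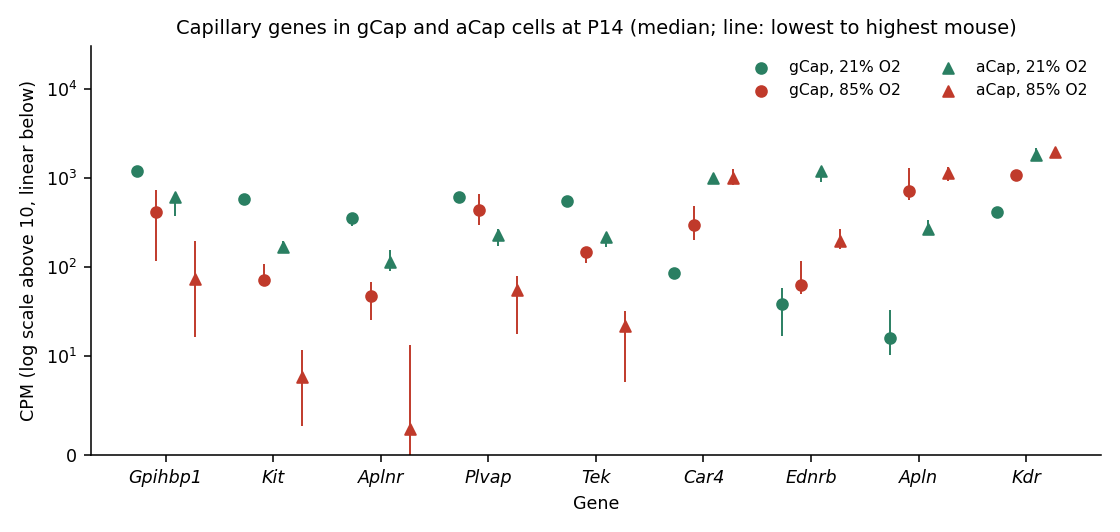
Level of 9 genes (CPM, linear below 10 and logarithmic above) in gCap (circles) and aCap (triangles) of P14 mice in normoxia and hyperoxia, with the median of 6 mice and a line from the lowest to the highest. Kit, Aplnr, Gpihbp1 and Plvap have lower medians in hyperoxia in both types, Ednrb is lower in aCap and higher in gCap, and Apln is higher in both.

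Of 10 tested imprinted genes of the growth network, 5 fell in normoxia from P7 to P14 (19.3% of all genes did) and none rose, led by Mest at 392 to 607 and 69.6 to 99.9 CPM (-2.47 ± 0.19). Hyperoxia lowered Mest at P3 (498 to 786 against 203 to 354 CPM, -1.03 ± 0.18) and P7 (-0.80), and raised Igf2r, which clears IGF2, at every age (0.66, 0.94 and 1.47) and Plagl1 at P14 (1.60), while Igf2 and Dlk1 were too low in gCap to be tested.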

How the data were processed

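The deposited values are raw UMI counts per gene and cell, made by the authors with Cell Ranger 3.0.2 on mm10 (per the labels), with a table of cells that gives library, sample barcode, age, oxygen and cell type. Mouse and pool were derived from it. The libraries labelled with both P3 and P7 were taken as the same pool, and each other library as its own. A mouse was taken as a sample barcode within a pool. The authors clustered the cells after integrating samples and regressing out the cell cycle and mitochondrial share. Their cell types were used as given, and no doublet caller was run, since the authors had already dropped cells with several sample barcodes and small contaminant clusters. The deposited table of cells also gives the percent of mitochondrial UMIs per cell, computed by the authors. Of the gCap cells, 113 (all at P14) had over 20% mitochondrial UMIs and were kept.

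gCap UMIs were summed per mouse over the 22100 genes. Mice with at least 10 gCap cells entered edgeR 4.0.16 (R 4.3.3), with TMM scaling, filterByExpr and quasi-likelihood tests over all age and oxygen groups, and Benjamini-Hochberg adjustment over all genes tested. SE is the absolute log2 fold change divided by the square root of F. The contrast with aCap had a term for each mouse. Shares were compared by two-sided exact permutation tests (SciPy 1.17.1). Alternatives were DESeq2 1.42.0, no filter, library size alone, a minimum of 25 cells, 25 cells per mouse, thinning to 1000 UMIs, removal of cells over 20% mitochondrial UMIs, a term for Y-linked UMIs, each P7 hyperoxic mouse left out, and a replicate block for the pool. All 35 fitted mice already held 25 gCap cells, so the minimum of 25 cells could change only the contrast with aCap. The contrast with aCap at P14 was added after seeing the data. Pools held both oxygen levels by design, and the correlation of their deviations across genes was 0.3 (P3), 0.411 (P7) and 0.0865 (P14).

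Genes named were the gCap markers and study genes in full, the called members with the lowest adjusted p of every other list, and the called genes with the largest changes at an average log2 CPM of at least 5. Further list members, among them Sod1, Nos3, Top2a and Mki67, were named outside that rule after their values were seen. The members and lists were chosen with earlier results of these data known. A listed gene is counted with its lists but not reported here by name. The sample barcode count tables were not used here. Gene positions are from GENCODE vM21 and promoter sequences from RefSeq.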

Additional observations from a re-analysis of the deposited data

Results flagged for a closer look

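In 5 of the 150 groups of mice examined, for 22 genes, 2 shares and the UMIs per cell, 1 mouse lay apart from the rest by Dixon's criterion, which chance alone meets in about 1 group in 20. All were at P3. The highest hyperoxic mouse had 1168 CPM of Plvap against 913 in the next and 814 in the lowest, and the highest normoxic mouse had 353 CPM of Kit against 301 and 271. For Tgfb2 the highest hyperoxic mouse had 41.9 CPM against 18.8 in the next. For Icam1 the highest mice had 412 CPM in normoxia (next 230) and 291 CPM in hyperoxia (next 222).

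The hyperoxia effect differed between P14 and P3 in 1972 genes and between P14 and P7 in 1485, and between gCap and aCap in 425, each by an interaction term in edgeR. At P14 against P3 the effect was more negative for Gpihbp1 (-1.93), Plvap (-0.85), Kit (-2.37), Aplnr (-2.62), Ptprb (-1.88) and Bmpr2 (-0.88). It was more positive for Inhba (6.53), Apln (4.90), Tgfb2 (3.92), Ctgf (3.64), Procr (3.05), Icam1 (2.52), Bst1 (2.47), Igfbp7 (2.42), Timp3 (2.34), Fxyd5 (2.11) and Itgb1 (0.54). Between the capillary types it was more positive in gCap for Aplnr (1.05), Kit (1.04), Plvap (1.02), Gpihbp1 (0.63) and Ptprb (0.42). Such genes also help to place a cell in either type, and the differences cannot be told apart from that choice.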

How the results depend on the processing

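With 25 gCap cells drawn per mouse (13 of each type for the contrast with aCap), hyperoxia changed 959 genes over all ages, and 11, 206 and 1219 genes at the ages in order. The effect then differed in 494 genes (P14 against P3), 282 (P14 against P7) and 22 (gCap against aCap), and age changed 0 (P3 to P7, normoxia; edgeR, 234 at an unadjusted p below 0.05), 626 (P7 to P14, normoxia) and 269 (P7 to P14, hyperoxia). With cells thinned to 1000 UMIs these counts were 834, 55, 198, 1125, 491, 287, 132, 4, 1027 and 213. Both settings use fewer UMIs. With no filter, 199 genes were called at P3 and 108 from P3 to P7, where DESeq2 called 41. The replicate block for the pool gave 391 at P3 and 98 from P3 to P7, and moved the counts of the other gCap comparisons by less than 1.5 times. It was not run for the contrast with aCap, and as a term within age it cannot separate age from pool. Leaving out each P7 hyperoxic mouse gave 2667 to 2775 genes over all ages, 126 to 143 (P3), 630 to 1006 (P7, the lowest without replicate 1) and 3706 to 3717 (P14). The differences in effect ran from 1938 to 1967 (P14 against P3), 1325 to 1483 (P14 against P7) and 420 to 438 (aCap), and the age steps from 19 to 30, 2948 to 2973 and 989 to 1287. The share differences kept their side of the threshold in every setting run. A block could not be fitted for the share of P14 against P7, whose ages share no pool. Direction turned for Tfpi (P7 to P14, normoxia, 0.16) and Grb10 (P14 against P7, 0.61) with 25 cells, and for Lyz2 (P14 against P3, 0.14), Emcn (P14 against P7, -0.058) and Ptprb (gCap against aCap, -0.080) with thinned cells. The cause of these 5 was not tested. Of the calls for named genes that could be refitted, 263 of 675 were lost with 25 cells and 187 of 656 with thinned cells, and 3 to 32 in any other setting.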
